A study of Saccharomyces cerevisiae with 23 samples.

Results

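The 8 genes that encode the subunits of the cytosolic chaperonin CCT, also called TRiC, were followed through RNA sequencing of budding yeast, Saccharomyces cerevisiae. They were taken by systematic name as 8 of the 6596 genes in the count table, and all 8 were among the 6111 genes that passed the filter on low counts. The study set mixed aneuploid populations, whose cells carry differing abnormal chromosome sets, against euploid populations, and sequenced 23 libraries in 8 groups. All groups were labelled with the strain BY4741 and received no treatment: an overnight culture in rich YPD medium was moved to fresh YPD for 4 h at 23 °C in 96-well plates before total RNA was taken. A haploid control, labelled euploid, had 2 libraries. The tetrad dissection route gave 1 euploid and 2 aneuploid populations (here T1 and T2), with 3 libraries each. The a-selection route gave 1 euploid and 3 aneuploid populations (here A1, A2 and A3), also with 3 libraries each. The labels do not name the chromosomes gained or lost, and each route has 1 euploid population, so that ploidy and what is particular to that population cannot be told apart. Nor do they say if replicates were grown as separate cultures. The p-values therefore rest on the spread between libraries alone, and that spread may be technical.

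CCT is a barrel of stacked rings in which the 8 related subunits hold fixed neighbouring positions, so that the assembled complex contains every subunit in equal number. It encloses newly made proteins and folds them with energy from ATP. Actin and the tubulins are its best-known clients, and several WD-repeat proteins also depend on it. All 8 yeast genes are essential for growth. Biochemical work has shown that the subunits use ATP unequally.

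The libraries held 12719710 to 19327344 counts, and the biological coefficient of variation between replicates was 5.05%, so that small differences could be called. BY4741 is a mating type a strain. The summed level of 4 alpha-specific genes (the pheromone genes MF(ALPHA)1 and MF(ALPHA)2, the receptor gene STE3 and the agglutinin gene SAG1) averaged 7859 CPM (counts scaled to a common library size, here after trimmed-mean, or TMM, adjustment of the library totals) in the euploid tetrad population, with 1765 for T1 and 1550 for T2. The sum was 49.9 in the haploid control and 54.7 to 79.3 in the 4 a-selection groups. Alpha-specific transcripts were thus higher in the tetrad groups, most of all in the euploid one. None of the 4 alpha-specific markers was at 0 in any group. The sum of 6 a-specific genes was also highest in that euploid group, at 5259 CPM. It was 2711 for T1, 2558 for T2, 1368 for the haploid control and 1052 to 1513 in the a-selection groups. For 5 haploid-specific genes the euploid tetrad sum was 1835 CPM. T1 had 693, T2 had 771 and the haploid control 374, with 346 to 396 in the a-selection groups. The part of mating type in the tetrad results below was not tested.

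In the R64 assembly the 8 subunit genes lie on 3 chromosomes, each as a coding sequence of 1584 to 1707 bp. TCP1 (YDR212W, the founding subunit, named after its mouse counterpart in the t-complex) is at chrIV:887232-888911, CCT4 (YDL143W) at chrIV:199996-201582 and CCT6 (YDR188W) at chrIV:836421-838061. CCT2 (YIL142W) is at chrIX:83302-84885. CCT3 (YJL014W) is at chrX:407558-409162, CCT5 (YJR064W) at chrX:555914-557602, CCT7 (YJL111W) at chrX:207877-209529 and CCT8 (YJL008C, the only member on the minus strand) at chrX:419957-421663. Their proteins have 527 to 568 residues, and over the 28 pairs the identity ran from 27.2% to 37.0% with a median of 29.9%. The closest pair was CCT4 with CCT5. Listed open reading frames on the opposite strand overlap 239 bp of CCT2 (15.1%) and 326 bp of CCT6 (19.9%). Those frames, YIL142C-A and YDR187C, held at most 10 and 7 counts in any library. The sources used here do not say whether counting used strand, so the levels of CCT2 and CCT6 relative to the other subunits are less certain than the rest.

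The 250 bases before each start codon were searched on both strands for 7 short patterns, because the 8 transcripts moved together across the groups. The pentamer GTGGC, the core of the proteasome-associated element GGTGGCAAA, was added to the search after the letters had been seen. It was found in all 8 subunit windows and in 19.2% of the 6001 windows of the same length before yeast coding sequences. A single match per gene is shown, the farthest from the start codon, read 5′ to 3′ on the gene's strand from RefSeq R64. Capitals mark the pentamer, which appears as GCCAC where it lies on the other strand.
TCP1, chrIV:887071-887099, plus strand: accttgtcctaaGTGGCaaagaactgaaa
CCT2, chrIX:83187-83215, plus strand: tttctcttcgcgGTGGCgagtttaaaaga
CCT3, chrX:407442-407470, plus strand: aaatagcaaatcGCCACtcaataaagtga
CCT4, chrIV:199829-199857, plus strand: ttactatcacttGCCACggggaaactgaa
CCT5, chrX:555819-555847, plus strand: gtcttggtggatGTGGCaaatgaggtgtg
CCT6, chrIV:836235-836263, plus strand: agttttgctttgGTGGCaaaattttcgct
CCT7, chrX:207709-207737, plus strand: attaatatttaaGTGGCgactttttcatc
CCT8, chrX:421753-421781, minus strand: tcacctccgctaGTGGCaaaaaaaagtga

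The first base of these matches lay between positions -174 (CCT6) and -83 (CCT5), counted back from the start codon. TCP1, CCT2, CCT3 and CCT4 held a further match closer to the gene. The whole element GGTGGCAAA was found in CCT6 alone of the 8 and in 1.13% of all windows. There it overlaps AAAATTTT, the ribosomal RNA processing element, which was also found in CCT5 and in 8.65% of all windows. GATGAG, the polymerase A and C box, was found in CCT5 (17.0% of all windows), and the heat shock pattern TTCNNGAA in CCT7 (11.1%). The other heat shock pattern, GAANNTTC (9.93%), and the stress response element AGGGG (18.8%) were found in none of the 8. These are letter matches in the given windows only. RPN4, which encodes the transcription factor of the proteasome-associated element and was looked up after the match was seen, had 218 CPM in the haploid control, 693 and 634 in the euploid tetrad and a-selection populations, and 497 to 571 in the 5 aneuploid populations.

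The summed transcript level of the 8 subunits had both its highest and its lowest value in groups labelled euploid. Levels here are TMM-scaled CPM. The sum was 3392 and 3451 CPM in the haploid control libraries, 675, 680 and 695 in the euploid tetrad libraries, and 986, 968 and 977 in the euploid a-selection libraries. In the aneuploid tetrad populations it was 1226, 1210 and 1222 in T1 and 1616, 1639 and 1639 in T2. In the a-selection populations it was 1106, 1111 and 1099 in A1, 1211, 1201 and 1215 in A2, and 1734, 1689 and 1738 in A3. Every aneuploid library thus lay above the euploid libraries of its own route and below both haploid control libraries. As a share of the haploid control mean the sums were 19.98% in the euploid tetrad population, 28.6% in the euploid a-selection population, 35.6% in T1 and 47.7% in T2, and 32.3% in A1, 35.3% in A2 and 50.3% in A3. In bulk libraries such as these, fewer cells with the transcripts and less transcript per cell cannot be told apart.

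**Figure D1:**
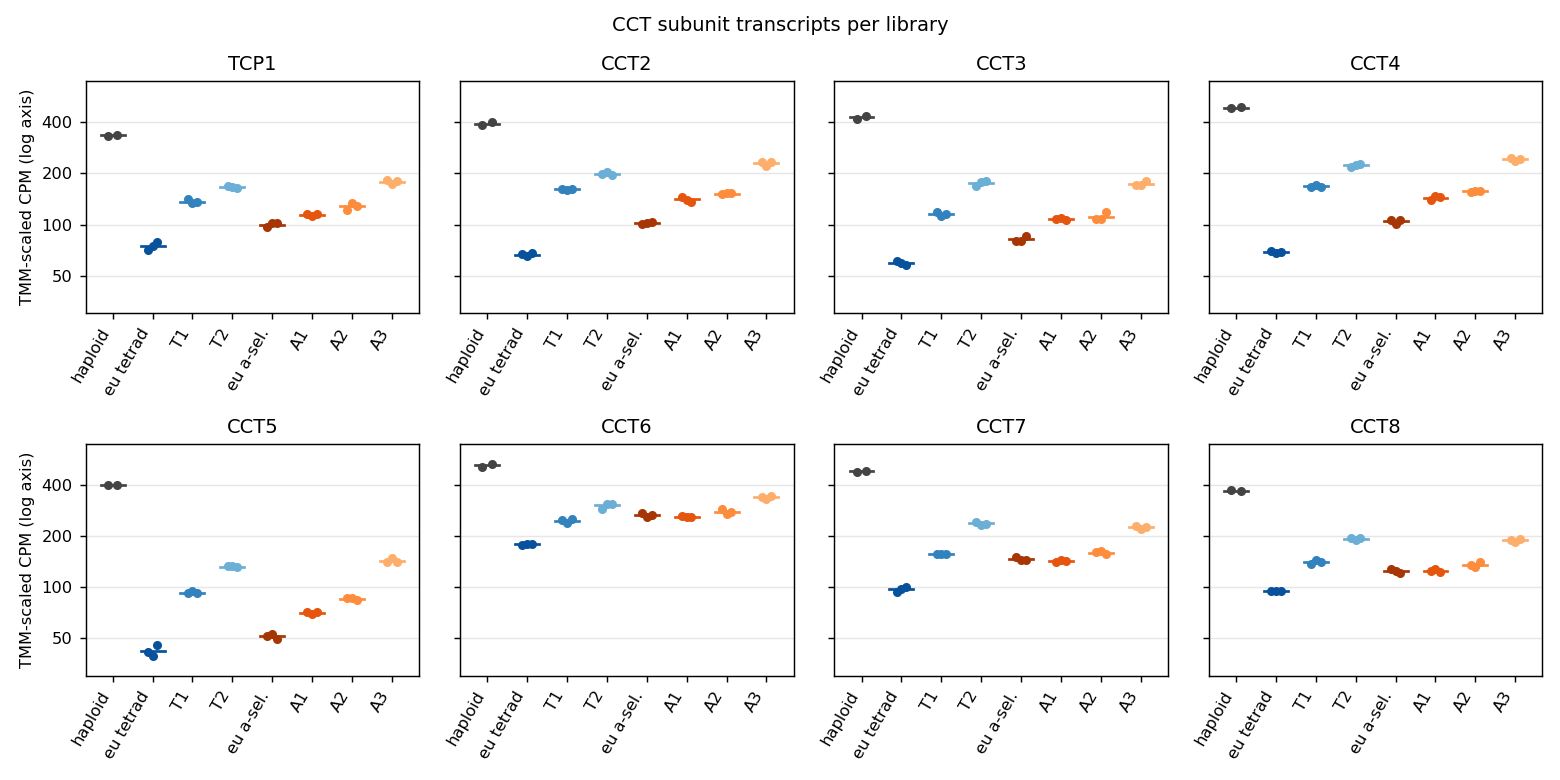
TMM-scaled CPM (log axis) of each CCT subunit gene, 1 panel per gene, in the 8 groups. Points are libraries and bars are group means. In every panel the haploid control is highest, and CCT6 and CCT5 show the narrowest and the widest spread between groups.

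CCT5 and CCT6 stood at the ends of the family. CCT5 had 401 and 402 CPM in the haploid control. It had 41.5, 39.6 and 45.5 CPM in the euploid tetrad libraries, 92.6, 94.5 and 92.1 in T1, and 133, 133 and 131 in T2. Its a-selection libraries had 51.6, 53.3 and 49.7 CPM in the euploid population, 71.4, 69.5 and 71.9 in A1, 85.9, 86.1 and 84.6 in A2, and 141, 149 and 140 in A3. Within each route every aneuploid library lay above every euploid library, as for 33.9% (tetrad) and 29% (a-selection) of all genes.

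CCT6 moved over a much smaller range. It had 514 and 531 CPM in the haploid control, 178, 180 and 180 in the euploid tetrad libraries, 250, 238 and 252 in T1, and 288, 311 and 310 in T2. Its a-selection libraries had 272, 260 and 266 CPM in the euploid population, 261, 261 and 259 in A1, 290, 270 and 276 in A2, and 340, 331 and 343 in A3. T1, T2 and A3 lay clear above their euploid libraries, as did 38.3%, 40% and 40.9% of all genes, whereas A1 and A2 overlapped theirs.

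CCT4, which yeast genetics first met as an actin-interacting gene, and CCT2 had nearly the same profile. CCT4 had 487 and 489 CPM in the haploid control, 70.3, 68.2 and 69.1 in the euploid tetrad libraries, 167, 170 and 166 in T1, and 219, 224 and 226 in T2. Its a-selection libraries had 107, 100 and 106 CPM in the euploid population, 139, 146 and 146 in A1, 156, 157 and 157 in A2, and 246, 237 and 245 in A3. The group means of CCT2 ran from 66.6 ± 1.34 CPM (SD, n = 3 libraries) for the euploid tetrad population to 393 ± 10.1 (n = 2) in the haploid control. Neither gene had a library that overlapped between the euploid and the aneuploid populations of a route. Of all genes, 33.9% (tetrad) and 29% (a-selection) were higher without overlap.

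The group means of the other 4 subunits kept within the same pattern. CCT3 ran from 59.5 ± 1.58 CPM (SD, n = 3 libraries) for the euploid tetrad population to 428 ± 13.5 (n = 2) in the haploid control, and TCP1 from 74.5 ± 4.14 to 336 ± 4.31 in the same groups. CCT7 ran from 97.3 ± 3.76 to 481 ± 2.01 CPM, and CCT8 from 95.1 ± 0.599 to 371 ± 2.18. All 8 subunits therefore had their lowest mean in the euploid tetrad population and their highest in the haploid control.

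Against the haploid control the euploid populations were far lower in every subunit. In the euploid tetrad population all 8 fell in edgeR's quasi-likelihood test (43.6% of all tested genes fell), with a median log2 fold change of -2.43 against 0.09 over all genes. CCT5 changed most, at -3.25 ± 0.04 (SE; adjusted p = 6.97e-27), and CCT6 least, at -1.54 ± 0.03 (adjusted p = 2.46e-22). In the euploid a-selection population all 8 fell (44.4% of genes fell), with a median of -1.85, from CCT5 at -2.96 ± 0.04 to CCT6 at -0.97 ± 0.03. The aneuploid populations were also below the haploid control in 8 of 8 subunits, with medians of -1.24 in the tetrad route (44.3% of genes fell) and -1.40 in the a-selection route (44.8%). All 8 subunits were higher in the euploid a-selection than in the euploid tetrad population (35.5% of genes were higher), with a median of 0.52. The medians against the haploid control were thus larger in size, for both euploid populations, than the median of any aneuploid population against the euploid population of its route (at most 1.43, T2).

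In the tetrad route the mean of T1 and T2 was higher than the euploid population in all 8 subunits, where 39.9% of all tested genes were higher. The median log2 fold change over the subunits was 1.14, against -0.05 over all genes. CCT4 rose 2.80-fold (log2 1.48 ± 0.03, adjusted p = 9.58e-24), CCT2 2.70-fold (1.43 ± 0.03) and CCT5 2.63-fold (1.40 ± 0.04). CCT3 rose by a log2 value of 1.26 ± 0.04, TCP1 by 1.02 ± 0.03 and CCT7 by 0.99 ± 0.02. The smallest rises were those of CCT8, at 0.79 ± 0.03, and CCT6, at 0.61 ± 0.03 (adjusted p = 9.86e-16). All 8 had every aneuploid library above every euploid library, as 33.9% of genes did.

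In the a-selection route the mean of A1, A2 and A3 was higher than the euploid population in all 8 subunits, where 39.8% of genes were higher. The median was 0.55, against 0.00 over all genes. CCT5 rose 1.85-fold (log2 0.89 ± 0.03, adjusted p = 2.81e-17), followed by CCT4 (0.75 ± 0.02), CCT2 (0.74 ± 0.02), CCT3 (0.64 ± 0.03) and TCP1 (0.46 ± 0.03). CCT7 and CCT8 both stood at 0.24 ± 0.02, and CCT6 at 0.13 ± 0.02 (adjusted p = 7.08e-05). The libraries of 5 subunits did not overlap (29% of genes were higher without overlap), and those of CCT6, CCT7 and CCT8 did. Without A3, CCT6 (0.02, adjusted p = 0.479) and CCT7 (0.05, adjusted p = 0.0749) no longer passed the test.

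Single populations differed in size more than in order. T1 and T2 were each above the euploid tetrad population in 8 of 8 subunits (38.2% and 40.5% of genes were higher), with medians of 0.92 and 1.43. T2 exceeded T1 in all 8 (35.9% of genes), by 0.29 (TCP1) to 0.61 (CCT3). A3 was above its euploid population in 8 of 8 (40.2% of genes), with a median of 0.96 and with CCT5 at 1.48 ± 0.04. A3 also exceeded A2 in all 8 (34.2% of genes), with a median of 0.55.

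A1 and A2 were the populations closest to their euploid population. In A1, 5 subunits rose (36.6% of genes were higher), by 0.19 (TCP1) to 0.46 (CCT2, CCT4 and CCT5), whereas CCT6 (-0.03 ± 0.03), CCT7 (-0.04 ± 0.03) and CCT8 (0.00 ± 0.03) did not pass the test. In A2 all 8 rose (36.4% of genes), with a median of 0.40. The rise of CCT6 in A2 was 0.07 ± 0.03 with an adjusted p of 0.0495, and with the replicate number as a block it had an adjusted p of 0.0558. Between A1 and A2, 7 subunits were lower in A1 (18.8% of genes were), all but CCT3 (-0.04 ± 0.04), and the median was -0.13.

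**Figure D2:**
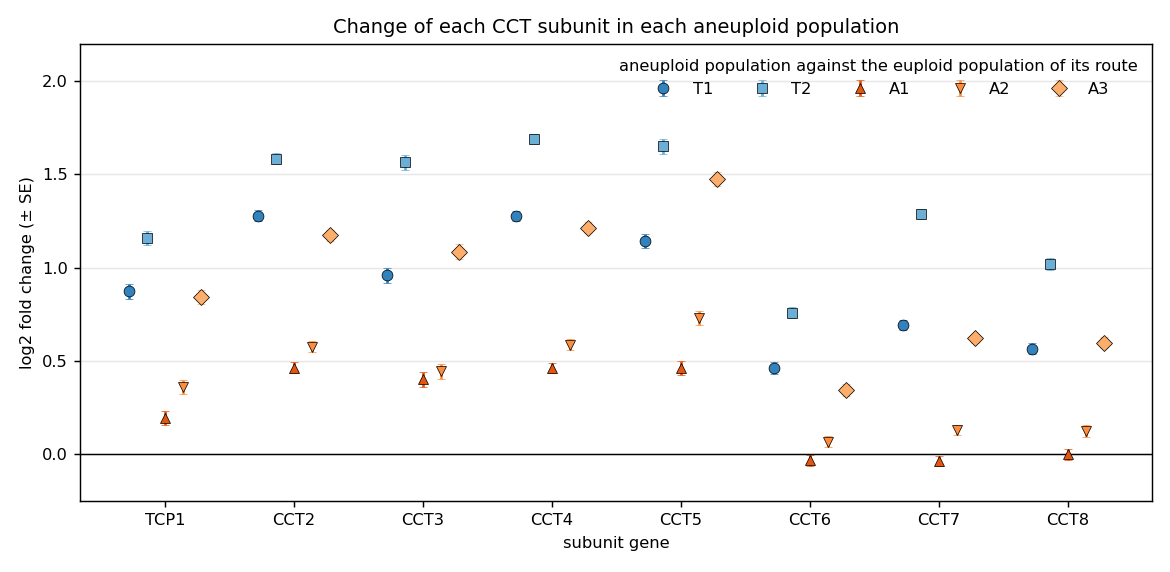
log2 fold change (± SE) of each subunit in each aneuploid population against the euploid population of its route. In all 5 populations CCT6 is among the 3 lowest subunits, and in A1 the values of CCT6, CCT7 and CCT8 sit at 0.

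The rise was larger in the tetrad route than in the a-selection route for all 8 subunits by the test of the difference itself (33.1% of genes were higher by it). The difference ran from 0.48 ± 0.04 (CCT6, adjusted p = 4.41e-11) to 0.75 ± 0.03 (CCT7, adjusted p = 1.62e-15), with a median of 0.59. The euploid tetrad population, the reference of the tetrad route, had the lowest CCT level of all groups, as given above.

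The balance between the subunits also differed between groups. Shares were taken from counts per kb of coding length, as a percentage of the sum over the 8 subunits in each library, and an equal share would be 12.5%. In the haploid control the highest subunit per length, CCT6 at 318 ± 7.43 CPM per kb (SD, n = 2), was 1.59 times the lowest, TCP1 at 199.98 ± 2.56. In the euploid tetrad population CCT6 at 109 ± 0.808 CPM per kb (n = 3) was 4.37 times the lowest, CCT5 at 24.98 ± 1.77. In the euploid a-selection population CCT6 at 162 ± 3.67 CPM per kb was 5.31 times CCT5 at 30.5 ± 1.06. The same ratio of CCT6 to CCT5 was 2.73 in T1, 2.36 in T2, 3.78 in A1, 3.35 in A2 and 2.42 in A3, so it was lower in each aneuploid population than in its euploid population.

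CCT6 was the highest subunit per length in all 8 groups, and CCT5 the lowest in the 7 populations. In between, the order changed. In both euploid populations CCT7 and CCT8 followed CCT6, whereas CCT4 was second in T1, A1, A2, A3 and the haploid control. In T2, CCT7 and CCT4 came next after CCT6 and had overlapping libraries. Other neighbours in the order with overlapping libraries were TCP1 and CCT4 in the euploid tetrad population, CCT8 and TCP1 in T1, CCT8 and CCT3 in T2, and CCT4 and CCT2 in the euploid a-selection population. They were CCT4 and CCT2, CCT2 and CCT7, and TCP1 and CCT3 in A1. In A2 they were CCT7 and CCT2, CCT8 and TCP1, and TCP1 and CCT3, and in A3 CCT8 and CCT3, and CCT3 and TCP1. In the haploid control no neighbours overlapped, over 2 libraries.

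**Figure D3:**
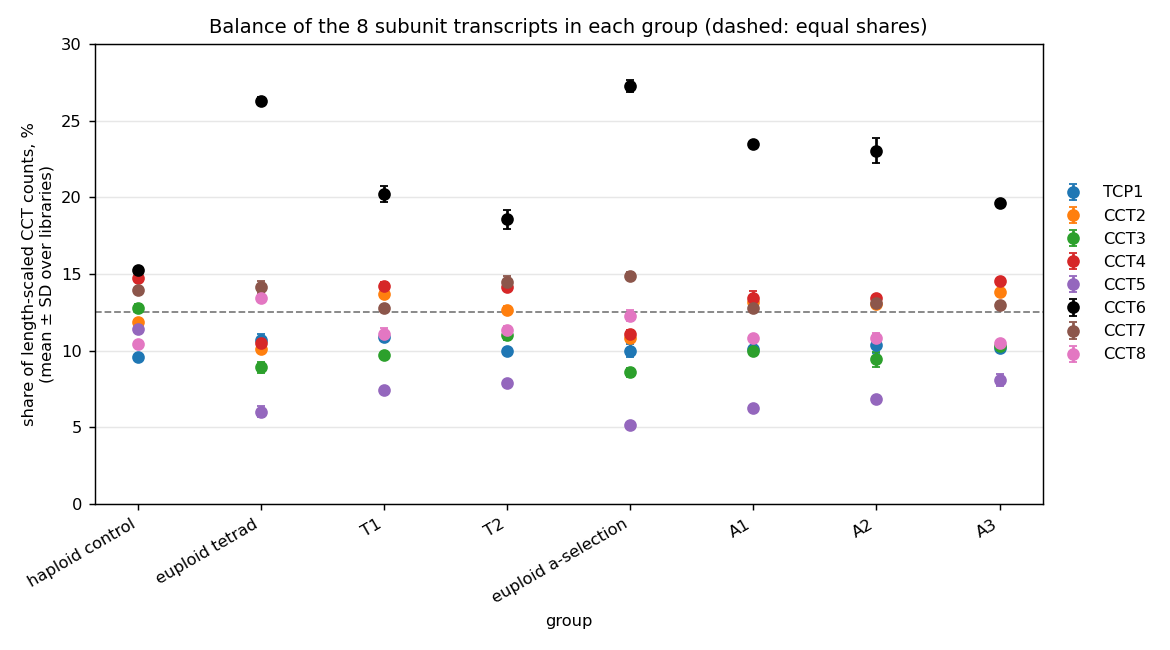
Share of each subunit in the length-scaled counts of the 8 CCT genes, in % (mean ± SD over 2 or 3 libraries), with the equal share of 12.5% as a dashed line. The points are most spread in both euploid populations, least in the haploid control, and in between in the 5 aneuploid populations.

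The share of CCT6 was 15.1% and 15.4% in the haploid control libraries and 26.3%, 26.5% and 26.0% in the euploid tetrad libraries, against 20.4%, 19.7% and 20.6% in T1 and 17.8%, 18.9% and 18.9% in T2. Its a-selection libraries had 27.6%, 26.9% and 27.3% in the euploid population, 23.6%, 23.5% and 23.5% in A1, 24.0%, 22.5% and 22.7% in A2, and 19.6%, 19.6% and 19.7% in A3. No aneuploid library overlapped the euploid libraries of its route. The mean share of CCT5 went the other way, from 6.01% ± 0.347 (SD, n = 3) in the euploid tetrad population to 7.41% ± 0.149 in T1 and 7.87% ± 0.113 in T2. From 5.13% ± 0.208 in the euploid a-selection population it went to 6.23% ± 0.140 in A1, 6.87% ± 0.103 in A2 and 8.09% ± 0.403 in A3, and it was 11.4% ± 0.131 (n = 2) in the haploid control.

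The SD of the log2 levels per length over the 8 subunits sums this up as a single value per library. It averaged 0.24 in the haploid control, 0.61 in the euploid tetrad population and 0.69 in the euploid a-selection population. The aneuploid populations had 0.43 (T1), 0.38 (T2), 0.54 (A1), 0.51 (A2) and 0.40 (A3). Every aneuploid population thus had a flatter set of subunit levels than its euploid population and a less flat set than the haploid control. TCP1 kept the steadiest share of the family, with group means of 9.58% to 10.9%.

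A fit in which each library was scaled to the geometric mean of its own 8 CCT counts tested this balance, so that a value is a subunit's change relative to the complex. The complex here stands for the 8 transcripts, as RNA and not protein was measured. By this scale 94.1% of all genes passed in the tetrad comparison (12.2% higher, 82% lower) and 88.3% in the a-selection comparison (15.9% and 72.3%). These shares are no like background, because the 8 CCT genes set the scale. The scale also centres the 8 values near 0, so that a gain of some subunits entails a loss of others. The sizes, and which subunits gained, therefore matter more than the calls. In the tetrad route all 8 subunits passed: CCT4 (0.36 ± 0.03), CCT2 (0.31 ± 0.03), CCT5 (0.27 ± 0.03) and CCT3 (0.14 ± 0.04) gained, and TCP1 (-0.11 ± 0.03), CCT7 (-0.13 ± 0.03), CCT8 (-0.33 ± 0.03) and CCT6 (-0.51 ± 0.03, adjusted p = 3.13e-15) lost. The a-selection comparison had 7 that passed, with CCT5 (0.38 ± 0.03), CCT4 (0.24 ± 0.02), CCT2 (0.23 ± 0.02) and CCT3 (0.13 ± 0.03) gaining and CCT8 (-0.27 ± 0.03), CCT7 (-0.28 ± 0.02) and CCT6 (-0.39 ± 0.02, adjusted p = 2.08e-13) losing. TCP1 stood at -0.05 ± 0.03 (adjusted p = 0.127). When the sum of the 8 counts served as the scale, TCP1 in the tetrad route was at -0.03 (adjusted p = 0.414). The difference between the routes on this scale passed for 5 subunits (86.1% of all genes passed) and ran from -0.13 ± 0.03 (CCT6) to 0.14 ± 0.03 (CCT7).

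CCT2, CCT4 and CCT5 gained and CCT6 and CCT8 lost relative to the complex in each of the 5 aneuploid populations, where 92.4% (T1), 94.4% (T2), 78.9% (A1), 83.1% (A2) and 92.2% (A3) of all genes passed on this scale. The loss of CCT6 ran from -0.27 in A1 to -0.58 in T2 and A3, and the gain of CCT5 from 0.22 in A1 to 0.56 in A3. Between the euploid tetrad population and the haploid control the values were larger and of opposite sign, with CCT6 at 0.89 ± 0.03 and CCT5 at -0.82 ± 0.04 (97.2% of genes passed on this scale). In the euploid a-selection population against the haploid control CCT6 stood at 0.97 ± 0.03 and CCT5 at -1.02 ± 0.04 (96.1% of genes passed). These comparisons share the euploid libraries with the aneuploid comparisons.

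When the replicates of each population were summed and the 7 populations were the units of a fit on ploidy and route, 3 subunits passed edgeR's quasi-likelihood test over all genes (14.2% of genes were higher by it). These were CCT2 (log2 1.08 ± 0.27, adjusted p = 0.0384), CCT4 (1.12 ± 0.29, adjusted p = 0.0412) and CCT5 (1.18 ± 0.32, adjusted p = 0.0452). CCT3 (0.97 ± 0.29, adjusted p = 0.0541) and TCP1 (0.74 ± 0.23, adjusted p = 0.0565) passed unadjusted, and CCT8 (0.52 ± 0.24), CCT7 (0.61 ± 0.29) and CCT6 (0.37 ± 0.18, adjusted p = 0.158) did not. Leaving out T1, T2, A2 or A3 ended all 3 calls. Each time 5 of 8 subunits had an unadjusted p under 0.05, as did 2608, 2459, 2470 and 2380 of 6111 genes. With all populations kept, 47% of genes did. The subunit median was 0.89, 0.72, 0.91 and 0.75 in those 4 fits, beside 0.86 with all populations. The genes called over the whole table were 3, 3, 0 and 1, beside 1540. With A1 left out 4 subunits were called, beside 1308 of 6111 genes. When the haploid control was entered as a further euploid population, without a route term, none of the 8 passed even unadjusted and all 8 were negative, from -0.080 (CCT2) to -0.65 (CCT5) with a median of -0.28. In that fit 0 of the 6111 genes were called, with 244 under an unadjusted p of 0.05. In the authors' deposited table, where 2.68% of 6316 genes were higher by the adjusted p-value, the 8 subunits had log2 fold changes with a median of 0.82. That table gave 0 of 8 an adjusted p under 0.05 (lowest 0.184, CCT2; highest 0.539, CCT6) and 5 of 8 an unadjusted p under 0.05.

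The labels give no copy number, so the median change of each chromosome was set beside the subunit genes it carries. In the tetrad comparison the median log2 fold change of the other genes was -0.26 on chromosome IV (777 genes), -0.05 on IX (223) and -0.14 on X (361). In the a-selection comparison these medians were -0.07, 0.11 and -0.12. With each chromosome's median subtracted, the subunit medians were 1.33 (tetrad) and 0.58 (a-selection), and CCT6 was the lowest of the 8 in both. The part of copy number in the CCT results was not tested.

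Genes of the helpers that hand clients to CCT rose with it, as far as they are reported here. Prefoldin, a hexamer that carries unfolded actin and tubulin to the chaperonin, and the phosducin-like protein PLP2, which acts with CCT during folding, gave 8 genes together with the prefoldin-like BUD27. In both routes 8 of 8 rose, with medians of 0.82 (tetrad, where 39.9% of all genes rose) and 0.56 (a-selection, 39.8%). The prefoldin subunit genes ran from 0.18 ± 0.05 (GIM3) and 0.68 ± 0.05 (PAC10) through 0.80 ± 0.06 (GIM4) and 0.83 ± 0.06 (PFD1) to 1.07 ± 0.06 (YKE2) and 1.16 ± 0.06 (GIM5) in the tetrad route. In the a-selection route they ran from 0.43 ± 0.04 (GIM3) to 0.70 ± 0.05 (GIM5). PLP2, an essential gene, rose by 0.54 ± 0.05 and 0.30 ± 0.04.

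BUD27, which encodes a prefoldin-like protein tied to RNA polymerase assembly and translation, rose most of these, by 1.89 ± 0.11 and 2.72 ± 0.12. Its levels were low outside the haploid control: 56.2 ± 3.5 CPM there (SD, n = 2), 2.63 ± 0.32 (n = 3) in the euploid tetrad and 1.38 ± 0.29 in the euploid a-selection population. The 8 genes summed to 717 CPM in the haploid control, 179 and 199 in the euploid tetrad and a-selection populations, 256 in T1, 337 in T2, 261 in A1, 260.0 in A2 and 337 in A3. All 8 were lower in each euploid population than in the haploid control, where 43.6% (euploid tetrad) and 44.4% (euploid a-selection) of all genes were lower.

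Genes of the clients moved in both directions, as did the genes of the whole table. Of actin and the tubulins, 3 rose and 2 fell in the tetrad route (39.9% higher and 44.8% lower over the table). For the a-selection route the counts were 2 and 3 (39.8% and 39%). The medians were 0.15 and -0.09. Whether these splits differed from the background was not tested. With library totals as the only scaling the tetrad counts were 4 and 1, beside 3588 higher and 1665 lower over the table. The a-selection counts were then 2 and 1, beside 2839 and 1911. ACT1, the actin gene, fell by 0.51 on the log2 scale (SE 0.02) in the tetrad route and stood at -0.09 ± 0.02 in the other. The alpha-tubulin gene TUB1 was at -0.27 ± 0.02 (0.056 with library totals as the only scaling, adjusted p = 0.00664) and -0.18 ± 0.02, and its minor partner TUB3 at 0.15 ± 0.03 and 0.23 ± 0.03. TUB2, the beta-tubulin gene, rose in the tetrad route (0.41 ± 0.02) and fell in the a-selection route (-0.11 ± 0.02), and the difference itself passed (0.52 ± 0.03, adjusted p = 2.86e-13). TUB4, the gamma-tubulin gene, rose in both (1.29 ± 0.07 and 0.36 ± 0.05).

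Tubulin cofactors act on tubulin after CCT has released it. In both routes 2 of these 6 rose and 3 fell, shares near those over all genes (39.9% higher and 44.8% lower in the tetrad route, 39.8% and 39% in the other). With library totals as the only scaling the counts were 3 and 2 in the tetrad route and 2 and 0 in the other. CIN4 was highest (1.09 ± 0.09 and 0.46 ± 0.08). CIN1 was at -1.04 ± 0.06 and -0.14 ± 0.06 and ALF1 at -0.23 ± 0.05 (0.098 with library totals as the only scaling, adjusted p = 0.0942) and -0.12 ± 0.04. RBL2 rose in the tetrad route (0.29 ± 0.07) and fell in the a-selection route (-0.21 ± 0.06). PAC2 was at -0.87 ± 0.06 in the tetrad route and 0.00 ± 0.06 in the a-selection route, with a tested difference between routes of -0.87 ± 0.09 (adjusted p = 4.49e-09). CIN2 was at 0.10 ± 0.10 and 0.37 ± 0.09.

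Of the 4 WD-repeat clients all fell in the tetrad route (44.8% of all genes fell), except that CDC20 was higher (0.14, adjusted p = 0.000303) with library totals as the only scaling, and 1 rose and 2 fell in the a-selection route (39.8% and 39% of all genes). CDC55, a regulatory subunit of phosphatase 2A, was at -0.39 ± 0.02 and -0.61 ± 0.02. The activators of the anaphase-promoting complex CDC20 and CDH1 were at -0.19 ± 0.03 and -0.48 ± 0.03 in the tetrad route and at -0.03 ± 0.03 and -0.29 ± 0.03 in the a-selection route. STE4, which encodes the beta subunit of the pheromone-response G protein, was at -1.42 ± 0.02 and 0.07 ± 0.02, and its level was 435 ± 6.8 CPM in the euploid tetrad population against 127 to 193 in every other group. The alpha-specific genes named above also had their highest sum in the euploid tetrad population, at 7859 CPM, as had the haploid-specific genes, at 1835 CPM. The part of mating type in the level of STE4 was not tested.

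**Figure D4:**
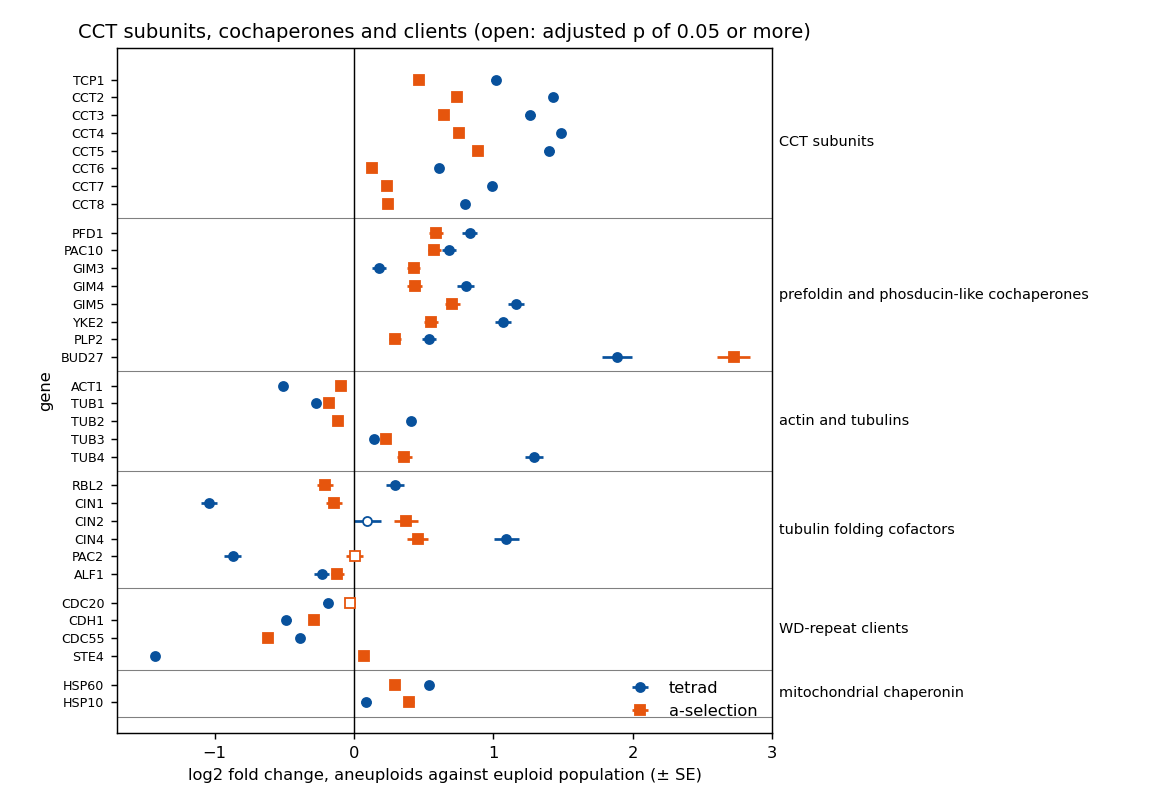
log2 fold change (± SE) of the 8 CCT subunits, their cochaperones and clients and the mitochondrial chaperonin in each route, for the averaged aneuploid populations relative to the euploid population. Open symbols did not pass the test. The subunits and the prefoldin genes lie right of 0, whereas the clients lie on both sides; with library totals as the only scaling, TUB1, ALF1 and CDC20 move right of 0 in the tetrad route.

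Other chaperones gave mixed counts, to be read against 39.9% higher and 44.8% lower over all genes in the tetrad route and 39.8% and 39% in the a-selection route. The mitochondrial chaperonin, a distant relative of CCT, rose in both genes and both routes: HSP60 by 0.54 ± 0.02 and 0.29 ± 0.02, HSP10 by 0.08 ± 0.03 and 0.40 ± 0.03. Of 9 Hsp90-system genes, 5 rose and 3 fell in the tetrad route and 6 rose and 1 fell in the a-selection route (6 and 2, and 8 and 0, with library totals as the only scaling). CNS1, an essential cochaperone, was highest (3.22 ± 0.098 and 2.76 ± 0.085). Of 8 Hsp70-system genes, 6 rose in both routes and 1 fell in the tetrad route (SSA3, a stress-induced Hsp70 gene, at -0.70 ± 0.02). The J-protein gene YDJ1 rose by 3.02 and 2.56. Of 7 ribosome-associated chaperone genes, 6 rose and 1 fell in both routes, with medians of 2.64 and 1.76 and with the ribosome-bound Hsp70 gene SSB1 at 3.95 and 1.99. The gene that fell was BTT1, a subunit gene of the nascent polypeptide-associated complex, at -0.32 ± 0.09 and -0.41 ± 0.08, and with library totals as the only scaling it stood at 0.0097 (adjusted p = 0.922) in the tetrad route. The CCT medians of 1.14 and 0.55 were lower than those of the ribosome-associated list.

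Gene lists of growth and of stress also differed between the 8 groups. By group means, the ribosome biogenesis sums had the order of the CCT sums apart from the place of T1. The summed level of 20 ribosome biogenesis genes was 7892 CPM in the haploid control, 66.3 in the euploid tetrad and 205 in the euploid a-selection population. It was 718 in T1, 2340 in T2, 720 in A1, 884 in A2 and 2543 in A3. All 20 rose in both routes, where 39.9% (tetrad) and 39.8% (a-selection) of all genes rose, with medians of 4.62 and 3.38. MAK16, needed for the large ribosomal subunit, rose by 6.03 ± 0.185 and 3.98 ± 0.118. Its reference was low in the tetrad route, where all 20 genes summed to 66.3 CPM in the euploid population. The libraries of T1 and A1 overlapped in this sum although those of T1 were all higher in the CCT sum, and T1 lay below A2 here although their CCT sums overlapped. The sum of 12 stress response genes was lowest where CCT was highest, in the haploid control, but it was near equal in both euploid populations and higher in A3 than in T2: 2284 CPM in the haploid control, 41683 and 41843 in the euploid tetrad and a-selection populations, 26123 in T1, 15113 in T2, 28293 in A1, 27576 in A2 and 21407 in A3. Of these 12, 11 fell in the tetrad route (44.8% of all genes fell) and 10 in the a-selection route (39%). Among them was the catalase gene CTT1 (-1.41 and -1.53). TSL1 rose in the tetrad route (0.08 ± 0.02). HSP26 rose in the a-selection route (0.15 ± 0.02) and stood at -2.60 ± 0.02 in the tetrad route. The part of growth state in the CCT results was not tested.

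**Figure D5:**
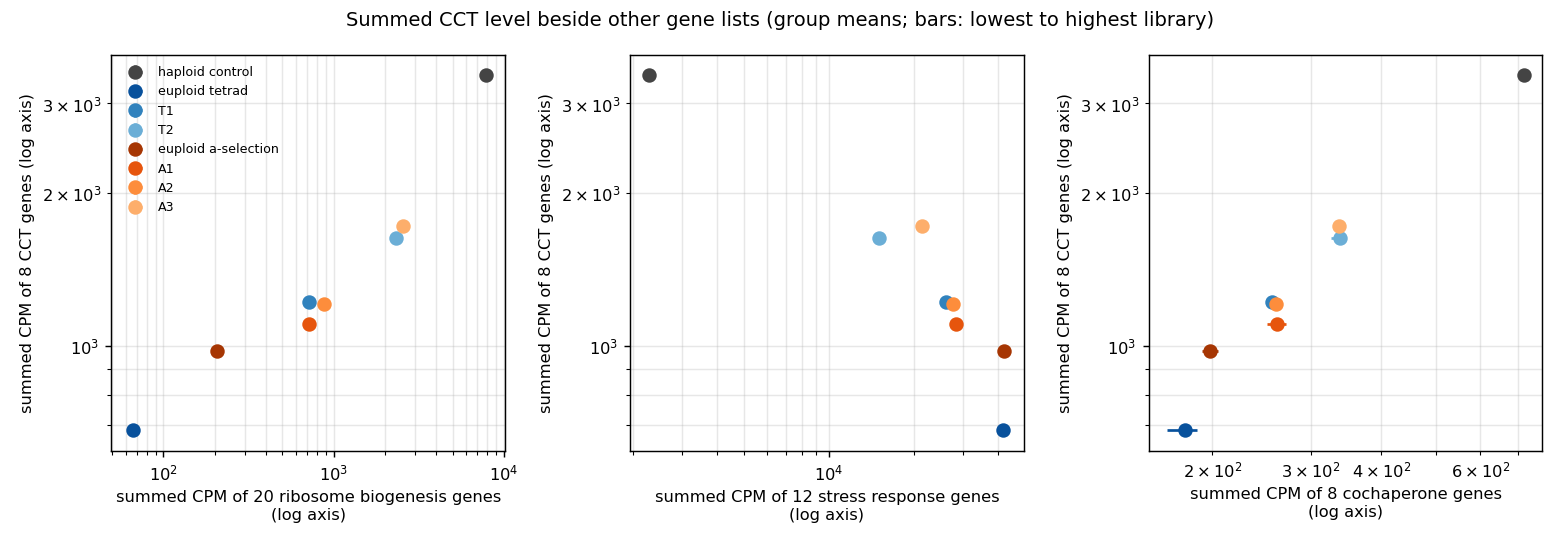
Summed CPM of the 8 CCT genes (vertical, log axis) against the summed CPM of 20 ribosome biogenesis genes, 12 stress response genes and 8 prefoldin and phosducin-like cochaperone genes (horizontal, log axes). Points are group means and bars run from the lowest to the highest library. The haploid control and the euploid tetrad population mark the ends of the CCT axis at 3421 and 683 CPM.

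Across the 8 group means of log2 CPM the subunits followed each other closely, with Pearson correlations of 0.941 (CCT5 with CCT6) to 0.998 (CCT7 with CCT8) over the 28 pairs. Against the mean of the other 7, TCP1 had the highest value (0.999) and CCT6 the lowest (0.962). The points share the libraries and their scaling, and the haploid control lies far from the rest. The genes outside the family with the most similar profile to the mean subunit were YGR054W (0.999), which encodes the translation initiation factor eIF2A, SCP160 (0.998), an RNA-binding protein of polysomes, BUD16 (0.996), HUT1 (0.996), a transporter of the endoplasmic reticulum, and SWD3 (0.996), a subunit of the COMPASS histone methyltransferase. Of 5336 genes of sufficient level 758 (14.2%) exceeded 0.95, so this profile was common.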

How the data were processed

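RNA-seq was deposited as raw counts per gene for 23 libraries. The submitters' processing notes name HISAT2 2.0.5, DESeq2 1.14.1, HTSeq 0.6.1p1, FastQC 0.11.5 and bcl2fastq 2.17.1.14, and the build R64. A deposited table of the authors' comparison holds, per the file headers, a mean count (signal), log2 fold changes, a test score, p-values and adjusted p-values; the sources used here do not say how they were made. TMM scaling and edgeR 4.0.16's quasi-likelihood test (limma 3.58.1, R 4.3.3) were used on the counts of all 8 groups, with 15 residual degrees of freedom and Benjamini-Hochberg adjustment over the 6111 genes kept by filterByExpr, called at 0.05. SEs are those implied by the F statistic. Further fits used the 8 CCT counts as the scale, or summed replicates with 7 populations as units (4 residual degrees of freedom). Levels are CPM; shares use counts per kb of coding length. Sequences, coordinates and proteins came from RefSeq R64 and Biopython 1.88 (global alignment, gap opening 11, extension 1). Members and lists were chosen with earlier results of these data known. Named genes are the 8 subunits, the cochaperone, client and mitochondrial chaperonin genes listed (1 cochaperone gene of the list is not reported here and was left out of its counts and sums), up to 4 genes of each other list and the 5 most similar profiles; RPN4 was added after its motif was seen. All 22 replicate pairs differed beyond sampling noise. Alternatives were other scalings, DESeq2 1.42.0, other filters, a replicate block, fewer groups, a stricter threshold, chromosome centring, and leaving out libraries or populations. The steps were tested on simulated counts.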

Additional observations from a re-analysis of the deposited data

Results flagged for a closer look

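For all 8 subunits the change from the euploid to the aneuploid populations differed between the routes by the test of the difference itself (edgeR's quasi-likelihood test). The tetrad change minus the a-selection change, in log2 units, was 0.55 for TCP1, 0.69 for CCT2, 0.62 for CCT3, 0.73 for CCT4, 0.51 for CCT5, 0.48 for CCT6, 0.75 for CCT7 and 0.55 for CCT8, with adjusted p-values from 1.62e-15 (CCT7) to 1.62e-09 (CCT5). Of all genes, 33.1% were higher by the test of the difference. Within the tetrad route alone, every aneuploid library lay above every euploid library for all 8 subunits, as for 33.9% of all genes.

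Relative to the complex, the difference between routes was smaller and passed for 5 subunits: 0.082 for CCT2 (adjusted p = 0.0364), 0.12 for CCT4 (adjusted p = 0.00494), -0.10 for CCT5 (adjusted p = 0.0486), -0.13 for CCT6 (adjusted p = 0.00181) and 0.14 for CCT7 (adjusted p = 0.000645). On that scale 86.1% of all genes passed. Each route has 1 euploid population, and the euploid tetrad population had the highest summed level of alpha-specific genes, 7859 CPM, beside 79.3 in the euploid a-selection population. Their part in the difference was not tested.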

How the results depend on the processing

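Of 308 counts of called subunits under an alternative, 303 stayed within 1.5 times the reported count, and the other 5 belong to the fit with the population as unit, where 3 subunits were called. That count was 0 without T1, 0 without T2, 0 without A2, 0 without A3 (3, 3, 0 and 1 of 6111 genes were called in these fits, beside 1540, and the subunit medians were 0.72 to 0.91, beside 0.86) and 0 when the haploid control joined the euploid populations with no route term. In the last fit all 8 subunits were negative, with a median of -0.28, among them the called CCT2 (-0.080), CCT4 (-0.24) and CCT5 (-0.65), and 0 genes of 6111 were called, with 244 under an unadjusted p of 0.05. Scaling by library totals alone shifted the median of all genes by 0.33 in the tetrad comparison and by up to 0.52 (tetrad aneuploids against the haploid control). The subunit medians were then 1.47 (tetrad) and 0.64 (a-selection), and the split of tetrad calls over all genes was 3588 higher and 1665 lower instead of 2441 and 2738. Of the listed genes, TUB1, ALF1, CDC20 and BTT1 changed sign in the tetrad comparison under that scaling, and none of those called did under RLE or upper-quartile factors. Under RLE factors, upper-quartile factors, DESeq2, the block and the groups compared alone the subunit medians ran from 1.14 to 1.21 and from 0.54 to 0.57. The replicate numbers did not pair the samples (correlations of same-numbered deviations from -0.170 to 0.263, median 0.00450, over 77 pairs; 9 of 21 libraries correlated best with their own number). The replicate block called 8 subunits in the tetrad and 8 in the a-selection comparison and ended the call of CCT6 in A2 (adjusted p = 0.0558). That call also ended under RLE factors (0.120), DESeq2 (0.131), the groups compared alone (0.0818), a threshold of 0.01 and without 4 of 6 libraries. Leaving out libraries changed the counts of called subunits from 8 to 7 to 8 (A2) and from 7 to 6 to 7 (A1 against A2). Relative to the complex the a-selection count went from 7 to 7 to 8. Without the overlapped bases the share of CCT6 ran from 18.0% to 31.3% over the groups, and without length scaling from 15.3% to 27.2%. CCT2 came second by share in T1, T2, A1, A2 and A3 when the overlapped bases were left out. Depth did not limit the subunits, which had 39.6 CPM or more in every library.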
